A study of Mus musculus with 12 samples.

Results

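The 8 genes Hmgcs1, Idi1, Fdps, Fdft1, Sqle, Lss, Cyp51 and Insig1 were examined in iWAT, the white fat depot under the skin of the mouse groin. The first 7 encode enzymes of cholesterol synthesis, taken here in the order of their steps, and Insig1 encodes a regulator of the pathway. They were chosen by name, with earlier results of these data known, and made up 8 of the 33200 gene identifiers in the count table. All 8 had enough counts to be tested.

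iWAT of mice with a global CRISPR/Cas knockout of Nrep (Nrep-/-, KO; 3 libraries) was set against iWAT of wild-type C57BL/6 mice (WT; 3 libraries). Both were 16 weeks old, kept free of specific pathogens and fed a standard maintenance diet. The knockout is not limited to fat. The deleted part of Nrep and the number of founder lines are not given in the sources used here. Libraries are called biological replicates in the labels without saying whether each came from 1 animal, so the p-values measure the spread between these samples. The 6 liver samples are not analysed here.

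Cells build cholesterol from acetyl-CoA by way of mevalonate, farnesyl diphosphate, squalene and lanosterol. Transcription of the enzymes is raised by SREBP transcription factors when sterols in the endoplasmic reticulum are low. INSIG proteins hold the SREBP escort protein SCAP in that membrane when sterols are plentiful. Fat tissue holds a large pool of unesterified cholesterol and is known to take most of it from lipoproteins.

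Bases upstream of the annotated start are shown for 4 of the 8 genes, the 2 that rose in KO iWAT, Insig1 and Lss, and the 2 with negative log2 fold changes, which did not pass the test, Hmgcs1 and Cyp51. The RefSeq promoter table (GRCm38.p6) held 5 of the 8 genes. Each run reads 5′ to 3′ on the gene's own strand. Capitals mark the 3 motifs searched on both strands, an SRE-type element (TCACNCCAC), a CCAAT box (CCAAT) and a GC box (GGGCGG), the kinds of site bound by SREBP, NF-Y and Sp1. The coordinates are those of the RefSeq table, since the sources do not say which build the iWAT counts used. The Lss run holds 210 bases and the others 250, because the annotated Lss gene begins earlier than the start used in the table.
Insig1, chr5:28071162-28071411, plus strand: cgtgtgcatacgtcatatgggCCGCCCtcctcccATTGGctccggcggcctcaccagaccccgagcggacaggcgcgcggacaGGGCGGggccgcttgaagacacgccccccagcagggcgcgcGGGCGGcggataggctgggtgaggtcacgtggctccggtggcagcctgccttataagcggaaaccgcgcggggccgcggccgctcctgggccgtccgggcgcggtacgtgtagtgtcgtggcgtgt
Lss, chr10:76531355-76531564, plus strand: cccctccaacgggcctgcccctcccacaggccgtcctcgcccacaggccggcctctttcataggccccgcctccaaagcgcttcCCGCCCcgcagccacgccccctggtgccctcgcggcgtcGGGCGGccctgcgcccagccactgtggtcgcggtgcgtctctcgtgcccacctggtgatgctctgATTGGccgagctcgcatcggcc
Hmgcs1, chr13:119690101-119690350, plus strand: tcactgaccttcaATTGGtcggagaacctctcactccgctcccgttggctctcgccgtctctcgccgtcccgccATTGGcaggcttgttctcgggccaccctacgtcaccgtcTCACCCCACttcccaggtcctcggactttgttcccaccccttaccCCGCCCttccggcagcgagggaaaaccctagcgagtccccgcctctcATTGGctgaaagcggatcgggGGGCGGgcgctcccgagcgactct
Cyp51, chr5:4104698-4104947, minus strand: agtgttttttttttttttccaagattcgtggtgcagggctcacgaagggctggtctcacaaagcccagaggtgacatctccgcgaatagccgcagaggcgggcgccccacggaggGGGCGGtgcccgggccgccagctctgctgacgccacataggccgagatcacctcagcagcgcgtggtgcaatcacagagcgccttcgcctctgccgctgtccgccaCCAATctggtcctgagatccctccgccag
The SRE-type letters occurred in Hmgcs1, at 137 bases upstream of the start, and had no match in the other 3 windows. They occurred in 1.04% of the 250-base windows of 27025 genes in the table. Other spellings of an SREBP site were not searched, so a window without a match may still hold one. A CCAAT box was found 3 times in Hmgcs1 and 1 time each in Insig1, Lss and Cyp51, against 34.5% of all windows with at least 1. A GC box was found 3 times in Insig1, 2 times in Lss, 2 times in Hmgcs1 and 1 time in Cyp51, against 32.9% of all windows. No 2 matches overlapped. These matches describe letters in a short window; binding was not measured, and the motifs were chosen with these windows in view.

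Depth was similar in both groups. Estimated counts summed to 18973117 to 19783453 per KO library and 17970451 to 20369345 per WT library. Nrep held 2, 2 and 5 counts in KO replicates 1, 2 and 3, against 1404, 1640 and 1300 in WT replicates 1, 2 and 3. The groups did not overlap on the first principal component, but 1 KO library lay near WT. On that component of all tested genes (66.0% of the variance), KO replicate 2 scored 1.43, apart from the other KO libraries at -39.0 and -56.1 and nearer to WT replicate 3 at 17.9, with WT replicates 1 and 2 at 33.4 and 42.4.

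In KO iWAT 2 of the 8 genes rose, Lss by 1.84-fold and Insig1 by 1.77-fold, and none fell. The other 6 did not pass the test, with log2 fold changes between -0.13 for Hmgcs1 and 0.75 for Fdft1. The test was edgeR's quasi-likelihood test over 16656 genes at a Benjamini-Hochberg adjusted p of 0.05, two-sided, on which 1.03% of all tested genes were called, 0.865% higher and 0.162% lower in KO. Over all genes 144 were called higher and 27 lower; with library totals as the only scale the split was 129 and 49, without KO replicate 2 it was 2410 and 1811, and without WT replicate 3 it turned to 104 higher and 230 lower. The 8 genes had a median log2 fold change of 0.35, against -0.06 over all tested genes, and 6 of the 8 were positive, against 44.2% of all genes. In 4 of the 8 all KO libraries lay above all WT libraries, against 15.2% of all tested genes. The 8 mature adipocyte markers had a median log2 fold change of 0.79 in the same comparison, and their part in these results was not tested. In whole tissue, more cells of a type and more RNA per cell cannot be told apart.

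**Figure D1:**
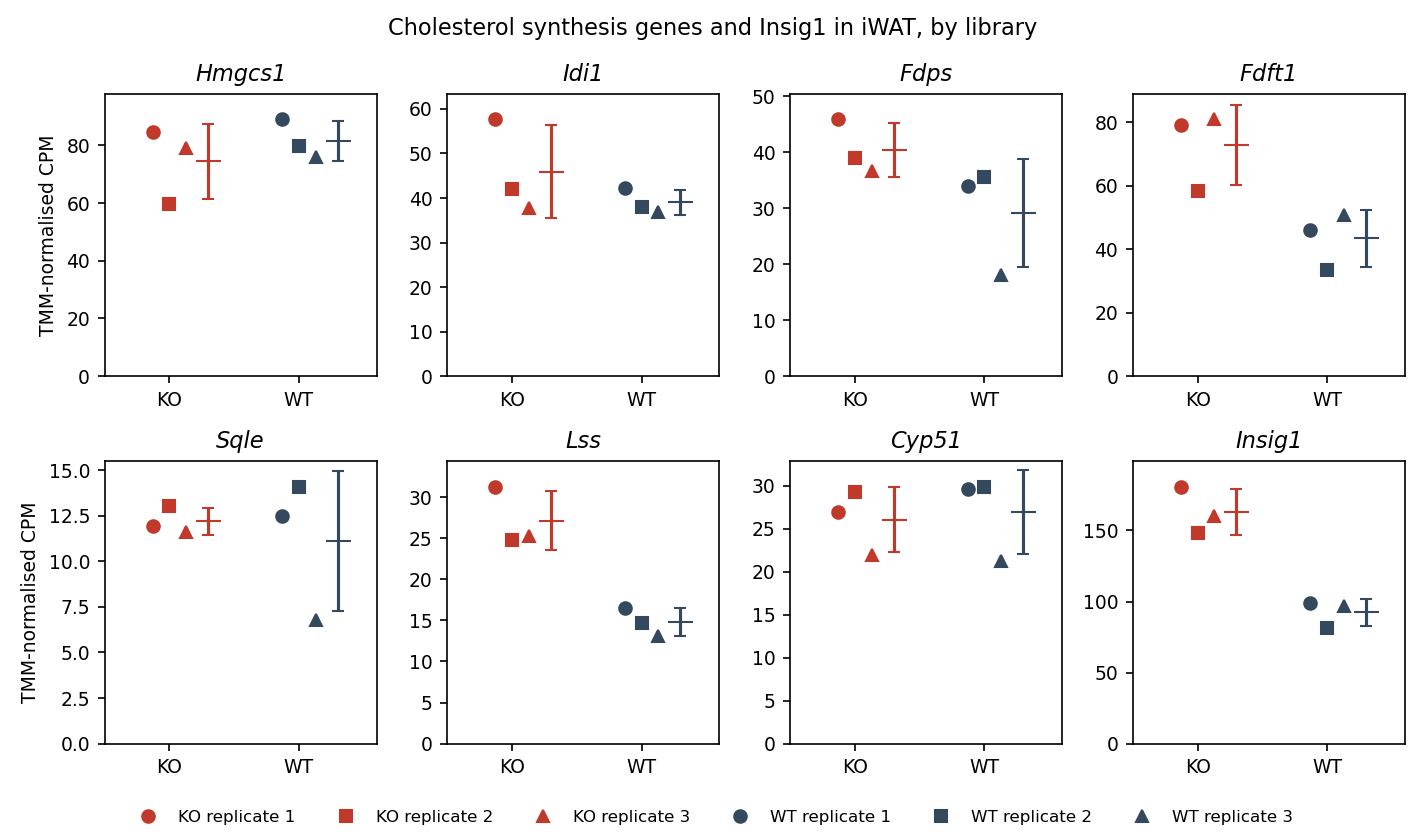
Levels (CPM, counts scaled to a common library size by TMM) of the 8 genes in each iWAT library, with KO on the left and WT on the right of each panel. Symbols are libraries and the bars beside them give the mean ± SD of 3 libraries. Insig1 (148 to 181 CPM in KO, 81.7 to 99.1 in WT), Lss and Fdft1 separated by genotype with a clear gap, while Hmgcs1, Sqle and Cyp51 overlapped.

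Levels are given in CPM, a gene's counts scaled to a common library size by the TMM method. CPM allow a gene to be compared between libraries but not with another gene, since they are not divided by length. Hmgcs1 (ENSMUSG00000093930), the cytosolic synthase that makes HMG-CoA, had 84.7, 59.8 and 79.0 CPM in KO replicates 1, 2 and 3, against 89.1, 79.7 and 75.9 CPM in WT replicates 1, 2 and 3. The groups overlapped, and KO replicate 2 was the lowest of the 6. The log2 fold change was -0.13 (95% interval -0.49 to 0.23, adjusted p = 0.624), so a change to between 0.712-fold and 1.17-fold of WT is within the interval.

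Idi1 (ENSMUSG00000058258), which turns isopentenyl diphosphate into dimethylallyl diphosphate, the starter of the chain, had 57.7, 42.1 and 37.8 CPM in KO replicates 1, 2 and 3, against 42.2, 38.0 and 36.9 CPM in WT. KO replicate 1 stood above the rest and the other KO libraries lay among the WT ones (log2 fold change 0.23, 95% interval -0.16 to 0.62, adjusted p = 0.427), and without KO replicate 1 that value was 0.0343. Fdps (ENSMUSG00000059743), which makes farnesyl diphosphate, the branch point to sterols and other isoprenoids, had 45.9, 38.9 and 36.6 CPM in KO, against 33.9, 35.5 and 18.01 CPM in WT. All KO libraries were above all WT libraries, with the closest pair at 36.6 CPM in KO and 35.5 CPM in WT, and WT replicate 3 was far below the other WT libraries. The log2 fold change of 0.47 did not pass the test (95% interval -0.11 to 1.05, adjusted p = 0.299), and it was 0.22 without WT replicate 3.

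Fdft1 (ENSMUSG00000021273), squalene synthase, which commits farnesyl diphosphate to sterols, had 79.1, 58.4 and 81.0 CPM in KO replicates 1, 2 and 3, against 46.2, 33.4 and 50.8 CPM in WT. The groups did not overlap, and the means were 72.9 ± 12.5 CPM in KO and 43.4 ± 9.03 CPM in WT (SD, n = 3 each). The log2 fold change of 0.75 (SE 0.194, 95% interval 0.30 to 1.19) missed the threshold with an adjusted p of 0.0848, and that p ranged from 0.00356 to 0.281 over 14 alternatives, 5 of which passed.

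Sqle (ENSMUSG00000022351), the squalene epoxidase, had 11.9, 13.004 and 11.6 CPM in KO, against 12.5, 14.1 and 6.78 CPM in WT replicates 1, 2 and 3. WT replicate 3 was the single low library, and the KO libraries lay near the level of the other WT ones, with KO replicate 2 above WT replicate 1. The log2 fold change was 0.13 (95% interval -0.47 to 0.73, adjusted p = 0.775), and it was near 0 with library totals as the scale (-0.0011).

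Lss (ENSMUSG00000033105), which closes squalene epoxide into lanosterol, the first sterol of the pathway, had 31.3, 24.8 and 25.3 CPM in KO replicates 1, 2 and 3, against 16.5, 14.7 and 13.1 CPM in WT. Every KO library was higher than every WT library. The mean was 27.1 ± 3.59 CPM in KO and 14.8 ± 1.70 CPM in WT (SD, n = 3 each). Its log2 fold change was 0.88, with an SE of 0.150 and an adjusted p of 0.0474. Its counts numbered 455 to 545 per KO library and 274 to 315 per WT library.

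Cyp51 (ENSMUSG00000001467), the demethylase that acts on lanosterol in the next step, had 27.0, 29.3 and 22.0 CPM in KO, against 29.7, 29.9 and 21.3 CPM in WT. The groups overlapped almost fully. The log2 fold change was -0.05 (95% interval -0.45 to 0.36, adjusted p = 0.887), and the upper bound of 1.28-fold lay below the 1.84-fold estimate for Lss.

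Insig1 (ENSMUSG00000045294), the sterol-dependent brake on SREBP, which is itself an SREBP target, had 181, 148 and 160.2 CPM in KO replicates 1, 2 and 3, against 99.1, 81.7 and 96.6 CPM in WT. The lowest KO library stood well above the highest WT library. The means were 163 ± 16.4 CPM in KO and 92.4 ± 9.40 CPM in WT (SD, n = 3 each). Its log2 fold change was 0.82, with an SE of 0.138 and an adjusted p of 0.0466. Its paralog Insig2, also an anchor for SCAP, had 54.7, 41.5 and 54.5 CPM in KO, against 39.6, 34.9 and 38.8 CPM in WT. Insig2 did not overlap between the groups either, but its log2 fold change of 0.41 did not pass the test (adjusted p = 0.141).

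Both calls were lost in edgeR when any library other than KO replicate 2 was left out. Of the 8 genes, 0 passed edgeR's test without KO replicate 1 (background 0.006% of tested genes called), KO replicate 3 (0.018%), WT replicate 1 (0.006%), WT replicate 2 (0.006%) or WT replicate 3 (2.01%). Without KO replicate 2 the background was 25.3%, and 3 passed, Fdft1 beside Lss and Insig1. The same 3 genes passed with KO replicate 2 and WT replicate 3 both left out (31.6%), with DESeq2 (10.9%), without the filter on low counts (4.14%), with the replicate number as a block (7.35%) and at an adjusted p of 0.10 (8.27%). Lss and Insig1 passed with RLE size factors (1.12%) and without robust estimation (1.12%), and 0 of the 8 passed with limma-voom (0.0961%) or with library totals as the scale (1.07%). Leaving out 1 library moved the log2 fold change of Lss between 0.76 and 1.00 and that of Insig1 between 0.74 and 0.94. Their adjusted p ranged from 9.72e-05 to 0.217 for Lss and from 7.75e-06 to 0.217 for Insig1 over 14 alternatives, of which 7 passed for each.

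**Figure D2:**
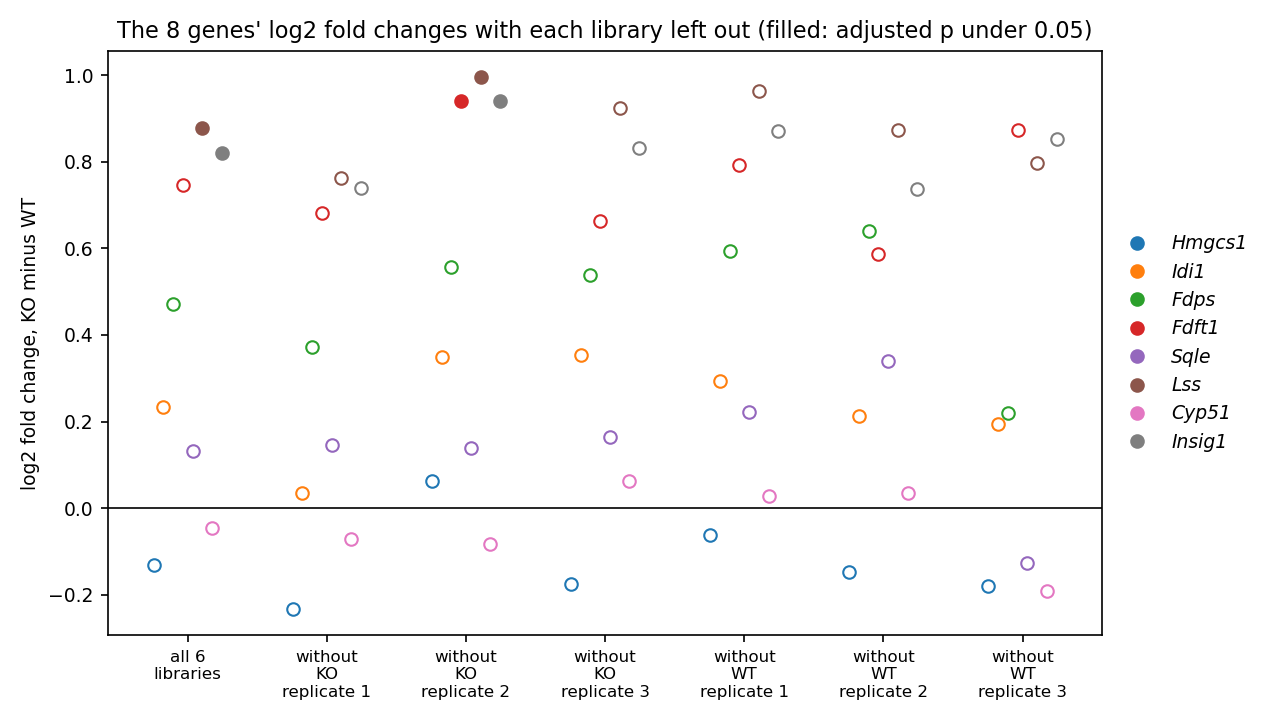
Log2 fold change (KO minus WT) of each of the 8 genes with all 6 libraries and with each library left out. Filled points had an adjusted p under 0.05. Lss, Insig1 and Fdft1 lay between 0.59 and 1.00 in each of these fits, whereas Hmgcs1, Sqle and Cyp51 lay on both sides of 0.

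Genes were also compared within each library as 8 ratios, 6 between enzymes that follow each other among the 7 and 2 of Insig1 to another gene. A ratio does not depend on how libraries are scaled. The log2 ratio of Cyp51 to Lss was -0.21, 0.24 and -0.20 in KO replicates 1, 2 and 3, against 0.85, 1.02 and 0.70 in WT. The ratio in KO was 0.530 of that in WT, without overlap (exact permutation p = 0.1, two-sided, the smallest that 3 against 3 libraries allow; 0.267 after adjustment over 8 ratios). The log2 ratio of Insig1 to Hmgcs1 was 1.09, 1.31 and 1.02 in KO, against 0.15, 0.04 and 0.35 in WT, a 1.95-fold difference (exact permutation p = 0.1; 0.267 adjusted). That of Insig1 to Insig2 was 1.73, 1.84 and 1.56 in KO, against 1.32, 1.23 and 1.32 in WT, a 1.34-fold difference (exact permutation p = 0.1; 0.267 adjusted). The other 5 ratios, all between enzymes, overlapped between KO and WT. No ratio could reach 0.05 at this group size.

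The other steps of cholesterol synthesis also included both clear separations and overlaps. Of 14 listed genes 13 were tested, 0 passed edgeR's test and 7 had an unadjusted p under 0.05, against 22.6% of all tested genes. DESeq2 called 5, all higher in KO, against 10.9% of all genes, and limma-voom called 0. Their median log2 fold change was 0.45, with a range of -0.40 to 0.90, and all KO libraries exceeded all WT libraries in 7 of the 13, against 15.2% of all tested genes. Acat2, the thiolase of the first step, had 157, 115 and 169.9 CPM in KO, against 82.0, 83.2 and 83.7 CPM in WT (log2 fold change 0.83, adjusted p = 0.0578). Sc5d, a late desaturase, had 84.3, 70.3 and 84.1 CPM in KO, against 47.0, 45.2 and 54.0 CPM in WT (log2 fold change 0.71, adjusted p = 0.0524). Both genes separated by genotype while missing the threshold.

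Nsdhl, Tm7sf2 and Pmvk separated as well. Nsdhl, a sterol dehydrogenase in the removal of methyl groups, had 47.0 ± 6.35 CPM in KO and 25.8 ± 5.46 CPM in WT (SD, n = 3 each; log2 fold change 0.86, adjusted p = 0.0630). Tm7sf2, a sterol reductase that acts just after Cyp51, had 7.52 ± 0.727 CPM in KO and 4.03 ± 0.674 CPM in WT (log2 fold change 0.90, adjusted p = 0.0685), and Pmvk, phosphomevalonate kinase, had 47.8 ± 7.32 CPM in KO and 28.4 ± 6.88 CPM in WT (log2 fold change 0.75, adjusted p = 0.0870). Mvk, mevalonate kinase, had a smaller log2 fold change of 0.45 (adjusted p = 0.153).

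Beside them stood steps with little difference. Ebp, the sterol isomerase, had 33.6, 33.4 and 36.6 CPM in KO, against 35.0, 37.0 and 30.9 CPM in WT, with a 95% interval of -0.26 to 0.28 for its log2 fold change. Msmo1 and Hsd17b7, which act with Nsdhl in the same demethylation, had log2 fold changes of 0.09 and 0.09, and Dhcr7, the last reductase, one of 0.22. With library totals as the scale, Msmo1, Hsd17b7 and Ebp had small negative values. Mvd, mevalonate diphosphate decarboxylase, was lower in all KO libraries, at 5.85, 6.80 and 5.61 CPM, against 7.87, 8.35 and 7.69 CPM in WT, without passing the test (log2 fold change -0.39, adjusted p = 0.233).

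**Figure D3:**
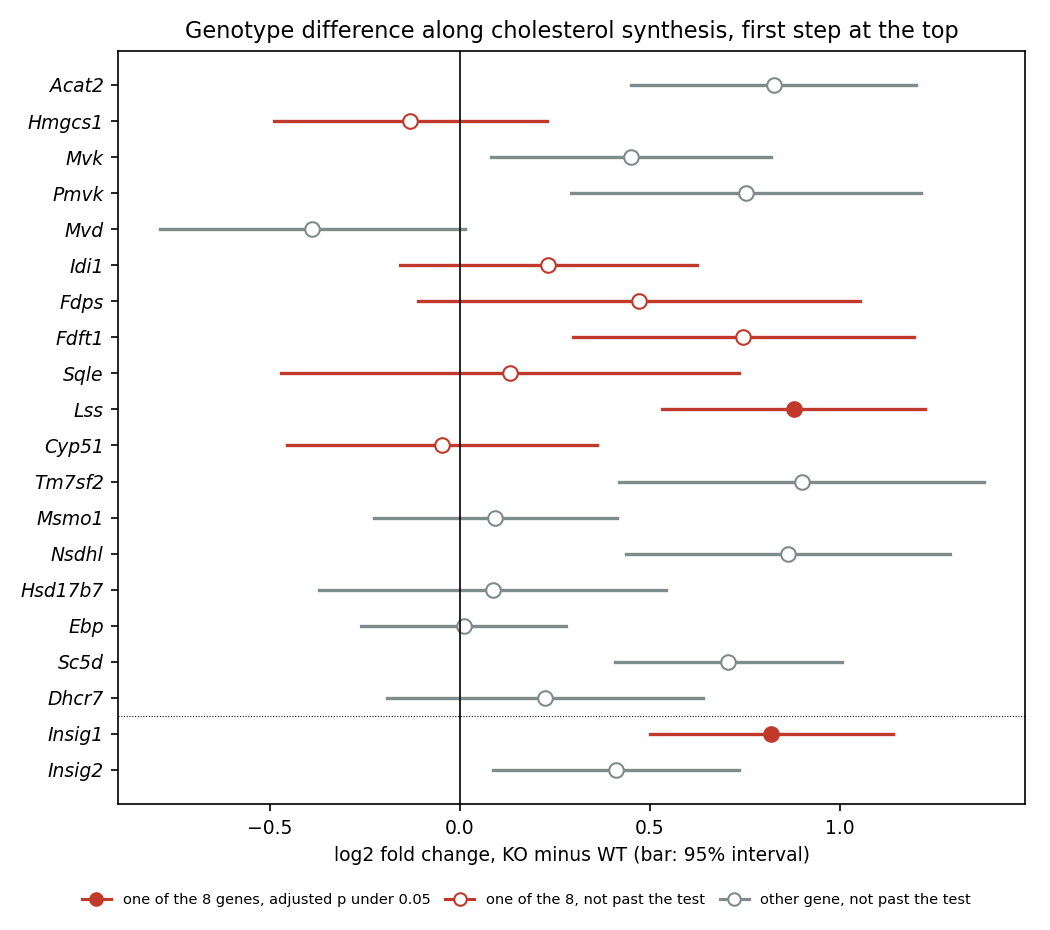
Log2 fold change (KO minus WT) with its 95% interval for the 7 enzymes, Insig1 and Insig2 and 11 of the 13 other tested synthesis genes, those with an entry in the RefSeq promoter table, ordered from the first step at the top. Filled points passed an adjusted p of 0.05, and these are Lss at 0.88 and Insig1 at 0.82. Estimates run from -0.39 for Mvd to 0.90 for Tm7sf2, with low, intermediate and high ones mixed along the pathway.

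Genes that sense sterols and process SREBP showed no called change. Of 11 tested 0 passed in edgeR, DESeq2 or limma-voom. An unadjusted p under 0.05 in edgeR was found for 2, against 22.6% of all tested genes, and the median log2 fold change was 0.02. Srebf2, the SREBP gene most tied to cholesterol synthesis, had 72.7, 109.0 and 55.7 CPM in KO replicates 1, 2 and 3, against 110.9, 99.96 and 87.4 CPM in WT. KO replicate 2 lay among the WT libraries, and the log2 fold change was -0.33 (95% interval -0.88 to 0.22, adjusted p = 0.426). That value depended on single libraries: without KO replicate 2 it was -0.57 and passed edgeR's test (adjusted p = 0.0357, with 25.3% of all genes called), and without KO replicate 3 it was -0.13 (adjusted p = 0.810), within a range of 0.0127 to 0.810 over 14 alternatives. Insig2 and Pgrmc1 of the same list also passed without KO replicate 2, but as higher in KO. Their log2 fold changes in that fit were 0.59 (adjusted p = 0.0104) and 0.72 (adjusted p = 0.0113). With all 6 libraries Pgrmc1 had a log2 fold change of 0.50 (adjusted p = 0.179). Scap had 43.0, 51.8 and 42.3 CPM in KO, against 43.6, 45.7 and 46.3 CPM in WT. Srebf1, the SREBP gene most tied to fatty acid synthesis and listed with those genes, had 263, 210.3 and 291 CPM in KO, against 163, 157 and 168 CPM in WT, a log2 fold change of 0.65 that missed the threshold in edgeR (adjusted p = 0.0725) and passed in DESeq2 (adjusted p = 0.00230), with 0.279 as the highest over 14 alternatives.

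Genes that handle cholesterol beyond its synthesis had list medians near the -0.06 of all tested genes. For the counts that follow, 22.6% of all tested genes had an unadjusted p under 0.05 in edgeR, and DESeq2 called 10.9%. Among 13 tested genes of uptake and intracellular transport 0 passed in edgeR, DESeq2 or limma-voom and 2 had an unadjusted p under 0.05, with a median log2 fold change of -0.09 and 8 of 13 negative. The log2 fold changes of this list ran from -0.48 to 0.28, and its lowest gene was Lipa, the lysosomal acid lipase. Lipa had 92.8, 88.5 and 93.9 CPM in KO, against 124, 161 and 99.8 CPM in WT (log2 fold change -0.48, adjusted p = 0.165). Among 9 tested genes of efflux, esterification and oxysterols 0 passed in edgeR or limma-voom, DESeq2 called 2 lower, 4 had an unadjusted p under 0.05, 5 of 9 were negative with a median of -0.02, and 4 were lower in all KO libraries than in all WT libraries, against 13.1% of all tested genes. The lowest of them are given here. Soat1, which esterifies cholesterol for storage, had 28.4, 40.4 and 22.4 CPM in KO, against 59.3, 75.8 and 46.7 CPM in WT (log2 fold change -0.99, adjusted p = 0.0834). Nceh1, a cholesteryl ester hydrolase, and Ch25h, a cholesterol hydroxylase, had log2 fold changes of -0.65 (adjusted p = 0.138) and -1.11 (adjusted p = 0.131). The macrophage markers had negative log2 fold changes beside these genes, all 8 of them (0 past edgeR's test or limma-voom's, 8 at an unadjusted p under 0.05, 4 called by DESeq2), a median of -0.71 and summed levels of 1645 to 2042 CPM in KO and 2440.1 to 3623 CPM in WT; their part in the result was not tested. The 9 genes of the isoprenoid branch that leaves the pathway at farnesyl diphosphate had a median log2 fold change of 0.07, with 0 past the test in edgeR or limma-voom, 1 in DESeq2, and 1, Pdss2, at an unadjusted p under 0.05 in edgeR.

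Over the 5 lists around the 8 genes, 0 of 55 tested genes passed in edgeR and 16 had an unadjusted p under 0.05, against 22.6% of all tested genes. DESeq2 called 8 of them, 6 higher and 2 lower in KO, on a background of 10.9% of all genes, and limma-voom called 0.

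Fatty acid synthesis genes, which SREBP also regulates, had a larger median log2 fold change. Of 10 tested, 4 rose in edgeR (Fasn, Elovl6, Me1 and Thrsp), against 0.865% of all genes called higher, and none fell. DESeq2 called 9 higher, against 10.9% of all genes in either direction, and limma-voom 1. All 4 lost the call in edgeR without KO replicate 1, KO replicate 3, WT replicate 1 or WT replicate 2, and Fasn and Me1 also without WT replicate 3. The median log2 fold change was 1.52 (range 0.35 to 2.22), against 0.35 for the 8 cholesterol genes (range -0.13 to 0.88), so the 2 ranges overlapped. Acly, which supplies cytosolic acetyl-CoA to both pathways, had 1855, 1287 and 1416 CPM in KO, against 604, 733 and 286 CPM in WT (log2 fold change 1.49, adjusted p = 0.0696). Acss2, another source of acetyl-CoA, and Acaca, which makes malonyl-CoA from it, had log2 fold changes of 1.56 (adjusted p = 0.0636) and 1.23 (adjusted p = 0.0630). The difference between the lists was not tested.

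Mature adipocyte markers had positive log2 fold changes beside these genes, and Lss, Insig1 and Fdft1 overlapped between the groups once set relative to them. All 8 markers were positive, with a median of 0.79, and 0 passed in edgeR or limma-voom. An unadjusted p under 0.05 in edgeR was found for 7, against 22.6% of all tested genes, and DESeq2 called 7, against 10.9%. Their summed level was 20136, 12892 and 22993 CPM in KO replicates 1, 2 and 3, against 9016 to 12172 CPM in WT. Relative to the mean log2 level of the 8 markers in the same library, Insig1 stood at -2.81, -2.53 and -3.34 in KO replicates 1, 2 and 3, against -2.86, -2.96 and -3.08 in WT. The groups overlapped, with a difference of 0.08 between the means. Lss and Fdft1 overlapped as well, with differences of 0.13 and 0.01. The log2 fold changes of Insig1, Lss and Fdft1, 0.75 to 0.88, were close to the 0.74 by which the marker mean was higher in KO. Differences near 0 on this scale were therefore largely set in advance. The part of the markers in these genes' results was not tested.

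Hmgcs1 was lower on this scale in every KO library, at -3.90, -3.84 and -4.36 in KO, against -3.01, -2.99 and -3.43 in WT (difference -0.89, exact permutation p = 0.1). Cyp51 had a difference of -0.78 with overlap (exact permutation p = 0.2). The marker mean itself was 0.74 higher in KO, so this scale lowers the difference of every gene by that amount. The median log2 fold change of all tested genes was -0.06 before that shift, so the values of Hmgcs1 and Cyp51 do not set them apart from genes in general. Fasn was still higher in every KO library, at 2.80, 2.83 and 2.19, against 1.89, 1.90 and 0.87 in WT (difference 1.05, exact permutation p = 0.1), and Elovl6 likewise, with a difference of 1.44. Acly, the third fatty acid gene set on this scale, overlapped (difference 0.84, exact permutation p = 0.2). The rest of the fatty acid list was not set on it. That list also held log2 fold changes below the 0.74 shift, such as 0.65 for Srebf1 and 0.35 for its lowest gene. Fasn and Elovl6 therefore do not stand for the whole list.

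**Figure D4:**
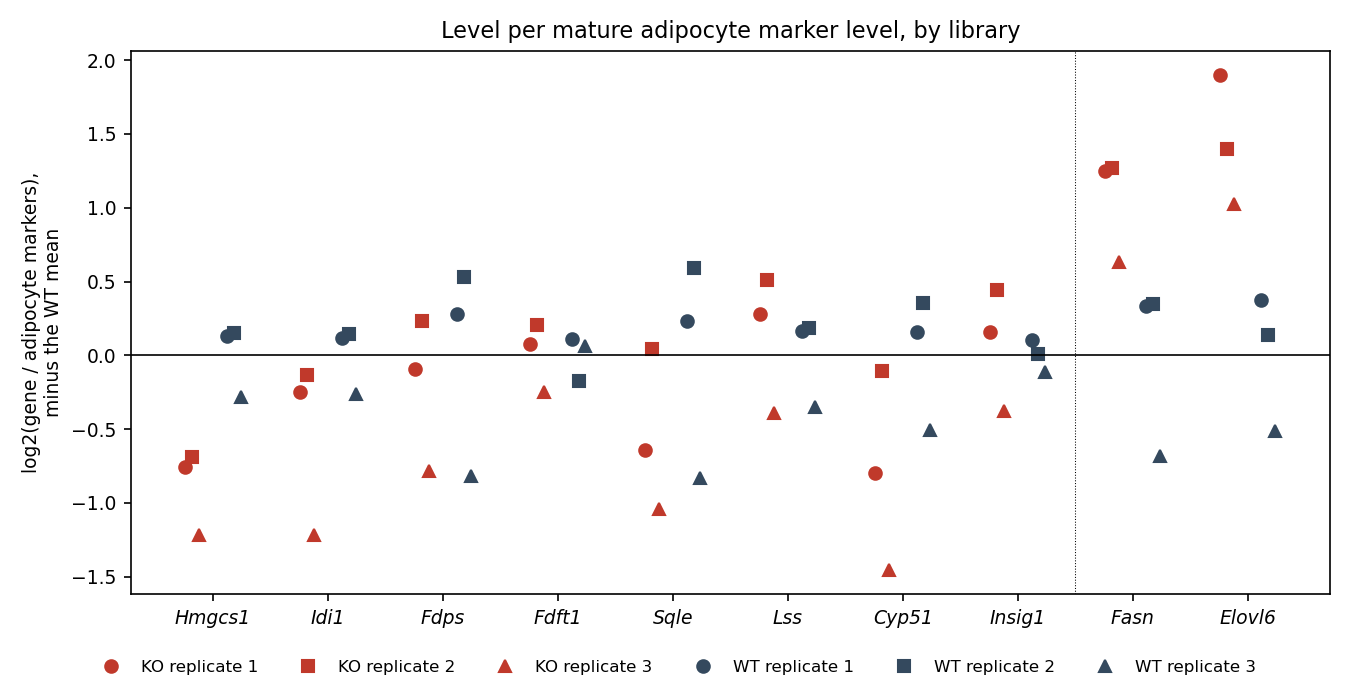
Log2 level of each gene relative to the mean log2 level of 8 mature adipocyte markers in the same library, minus the WT mean; KO libraries are left of WT libraries for each gene. Insig1, Lss and Fdft1 overlap between KO and WT, and Hmgcs1 lies below WT in all KO libraries. Fasn and Elovl6, to the right of the dotted line, lie above. Acly, which overlapped on this scale, is not drawn. The marker mean was 0.74 higher in KO, which lowers every gene's KO values alike on this scale.

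Summed levels of other cells' markers differed to varying degrees. Skeletal muscle markers summed to 3135, 532 and 2912 CPM in KO replicates 1, 2 and 3, against 10.8 to 16.3 CPM in WT. Of the 8, 6 passed the test, against 1.03% of all tested genes, and 2 were at 0 counts in at least 1 WT library. Lymphocyte and lymph node markers summed to 493 to 1739 CPM in KO, with KO replicate 2 the highest, and 1435 to 1506 CPM in WT. Endothelial markers summed to 1049 to 1282 CPM in KO and 866 to 948 CPM in WT. Progenitor and fibroblast markers summed to 1829 to 3537 CPM in KO and 2892 to 3291 CPM in WT. Epithelial markers lay at 3.06 to 7.29 CPM in KO and 6.01 to 11.8 CPM in WT, with 2 of the 6 at 0 counts in at least 1 library of each group. Brown and beige markers lay at 176 to 376 CPM in KO and 60.5 to 181 CPM in WT. Hepatocyte markers summed to 2398 to 5141 CPM in KO and 2391 to 3529 CPM in WT. Of the 4, 2 had enough counts to be tested and 2 were at 0 counts in at least 1 WT library. The sum thus came mainly from the 2 tested genes, too few for it to be taken as a measure of hepatocytes. Mitochondrially encoded genes held 6.37% to 9.27% of KO counts and 3.54% to 6.83% of WT counts. No marker list other than muscle had a gene past edgeR's test. Of the tested markers, DESeq2 called 2 of 6 endothelial, 1 of 6 progenitor, 1 of 2 hepatocyte and 2 of 4 brown and beige ones, against 10.9% of all genes. The part of these in the results on Lss, Insig1 and Fdft1 was not tested.

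The genes whose pattern over the 6 libraries lay nearest the average of the 8 were Gucd1, Gpi1, Ndufaf7, Rilpl1 and Extl2, among 9726 genes with a mean of at least 10 CPM. Likeness was the root mean square difference of centred log2(CPM + 1) levels, 0.0545 for Gucd1 and 0.0730 for Extl2. The 8 genes themselves lay farther from their own average, at 0.152 for Idi1 to 0.322 for Fdft1, so the average described none of them closely. The 5 genes were picked as the nearest of the 9726, so their small distances and similar log2 fold changes were largely set by that choice. None of the 5 passed the test, with log2 fold changes of 0.30 to 0.46.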

How the data were processed

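Libraries of 6 iWAT samples were made from poly(A) RNA with Illumina's ligation kit for stranded mRNA, per the labels' protocols. The deposited table holds the authors' estimated counts per gene and library, unscaled and not pooled; 9.53% to 11.1% of values per library were not whole. The submitters' processing notes name fastp, featureCounts, GRCm38 and GRCm39 for the whole series; the quantifier and build of this table are not given in the sources used here. How reads shared by near-identical genes were handled is not stated in them.

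Values were rounded before fitting. GENCODE M21 names matched 26372 of 33200 identifiers (79.4%); identifiers without a name held 0.980% to 1.39% of counts and stayed in the fit. No 2 libraries were identical. The main test was edgeR 4.0.16 (R 4.3.3; TMM, filterByExpr, robust glmQLFit and glmQLFTest, no covariate) over 16656 genes with Benjamini-Hochberg adjustment. A standard error is the log2 fold change divided by the square root of F, and 95% intervals use the test's degrees of freedom. Single counts were worth 0.0491 to 0.0556 CPM. Alternatives were DESeq2 1.42.0, limma-voom (limma 3.58.1), other scalings, filters and thresholds, a replicate block and libraries left out. The fits were tested on simulated counts.

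The 8 genes and all lists were chosen with earlier results of these data known. Named genes were the 8, Nrep, listed pathway genes and the 5 nearest patterns; listed genes without an entry in the RefSeq promoter table were counted but not named.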

Additional observations from a re-analysis of the deposited data

How the results depend on the processing

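The direction of Lss, Insig1, Fdft1, Fdps and Idi1 was kept in all 14 alternatives, and no alternative called Hmgcs1, Idi1, Fdps, Sqle or Cyp51. Of the recomputed log2 fold changes of named genes, 484 kept direction and call, 91 gained a call, 35 lost it and 20 changed sign. The count over all genes was 171, against 1823 with DESeq2, 16 with limma-voom, 1370 without the filter and 1378 at an adjusted p of 0.10. Leaving out 1 library gave 1 to 4221 genes (0.006% to 25.3% of those tested), 0 to 3 of the 8 genes and 0 to 16 pathway genes. Of the 8 genes, 0 passed with limma-voom and 0 with library totals alone, which shifted the all-gene median by -0.13 on the log2 scale. Of the other pathway genes, 6 passed at 0.10 (8.27% of all tested genes), 8 with DESeq2 (10.9%), 1 with RLE size factors (1.12%) and 8 without the filter (4.14%). The main test called 0 of them (1.03%), so these counts moved along with those over all genes.

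KO replicate 2 and WT replicate 3, left out together after the data had been seen, gave 5271 genes (31.6%), 3 of the 8 and 19 pathway genes; there Hmgcs1 was at 0.0034, Sqle at -0.13, Msmo1 at -0.0174 and Scap at -0.0188. With library totals alone, Sqle was at -0.0011, Msmo1 at -0.0360, Hsd17b7 at -0.0531, Ebp at -0.13 and Scap at -0.11. With 1 library left out, Hmgcs1 ranged from -0.23 to 0.0632, Sqle from -0.13 to 0.34, Cyp51 from -0.19 to 0.0625, Hsd17b7 from -0.0188 to 0.21, Ebp from -0.0589 to 0.091 and Scap from -0.0263 to 0.0691. Why KO replicate 2 moves the counts most was not tested. The replicate block gave 1225 genes (7.35%), 3 of the 8 and 7 pathway genes. Same-numbered libraries deviated together with correlations of -0.0122, 0.235 and 0.116 across 16656 genes, and not every library correlated best with its own number, so the numbers were not taken to pair the samples.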
